A study of Homo sapiens with 3 samples.

Results

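Metallothionein genes and their partners in zinc handling were followed in A375, an established human melanoma cell line, after exposure to adipocyte secretome. The set held 8 genes of the 58037 in the count file, found by symbol: MT1E, MT1F, MT1G, MT1M, MT1X, MT2A, MTF1 and SLC30A1. Of these, 5 had a count in at least 1 library, and 4 (MT2A, MT1X, SLC30A1 and MTF1) reached a mean normalised count of at least 20, as did 14413 genes in all. RNA sequencing compared cells kept for 24 h in serum-free DMEM (control), in young adipocyte secretome (YA-A375) or in old adipocyte secretome (OA-A375), with 1 library per group. All 3 groups had the same line and serum-free base medium. The secretomes were serum-free DMEM conditioned by adipocytes that had been differentiated from human preadipocytes in medium with insulin, dexamethasone, indomethacin and IBMX. After differentiation the adipocytes were kept in a maintenance medium, and they were washed with PBS before the serum-free DMEM was added. The number of donors behind each secretome sample was not given in the sources used here. With a single library per group no difference below has a replicate check, and no p-value was computed. The treatment protocol gives a range of exposure times that starts at 24 h. In such bulk RNA, more transcript per cell and more cells with the transcript cannot be told apart.

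Metallothioneins are small cysteine-rich proteins that bind zinc, copper and other metals and hold the free metal in the cytosol low. When zinc rises, the zinc-finger factor MTF1 binds metal response elements in DNA and activates metallothionein genes and SLC30A1, which encodes the zinc exporter ZnT1 of the plasma membrane. MT2A is also a classic target of glucocorticoids, and metallothionein genes are inducible by inflammatory and oxidative signals.

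The metallothionein members lie within a cluster on chromosome 16 (GRCh38, 56565049 to 56684196 by GENCODE 29), while MTF1 and SLC30A1 lie on chromosome 1. Their coding sequences are shown because reads from near-identical copies are hard to assign to 1 gene. Each of the 6 metallothioneins has 61 codons before the stop, and 20 of these are TGC or TGT, the codons of cysteine. The coding sequence of MT2A and those of MT1X and MT1E, from GENCODE 29, are given with capitals at bases that differ from MT2A.
MT2A: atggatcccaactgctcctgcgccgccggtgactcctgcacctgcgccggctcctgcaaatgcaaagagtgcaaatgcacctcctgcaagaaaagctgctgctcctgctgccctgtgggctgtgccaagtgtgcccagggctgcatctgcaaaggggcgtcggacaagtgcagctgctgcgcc
MT1X: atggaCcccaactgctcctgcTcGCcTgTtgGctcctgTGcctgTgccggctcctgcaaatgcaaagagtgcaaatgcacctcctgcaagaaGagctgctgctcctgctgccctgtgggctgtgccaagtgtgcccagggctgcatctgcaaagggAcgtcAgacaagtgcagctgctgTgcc
MT1E: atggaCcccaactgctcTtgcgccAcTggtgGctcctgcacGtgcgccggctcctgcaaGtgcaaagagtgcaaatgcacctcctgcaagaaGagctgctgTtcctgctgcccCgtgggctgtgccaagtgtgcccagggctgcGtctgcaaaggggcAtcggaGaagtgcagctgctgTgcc
MT1X and MT1E each differed from MT2A at 14 of 183 coding bases, and over the 6 genes the pairwise identity ran from 88.5% (MT1F and MT1X) to 95.1% (MT1G and MT2A). Sharing was then counted over whole transcripts, without separating the coding part from the rest. Of windows of 75 bases in the principal transcript, none of 712 in MT2A, none of 616 in MT1F, 1 of 755 in MT1M and 5 of 630 in MT1E occurred in a transcript of another annotated gene. The number was 22 of 332 in MT1G and 119 of 376 in MT1X. For MT1X, 321 of its 1773 exonic bases are also annotated as exon of a non-coding gene on the same strand, AC026461.1, and the exons of the other members overlap no exon of another gene. AC026461.1 had 0 counts in all 3 libraries, under an older name. With windows of 100 bases, MT2A, MT1E, MT1F, MT1G and MT1M shared none and MT1X shared 67 of 351, all with AC026461.1. With windows of 50 bases, 36 of 737 in MT2A and 181 of 401 in MT1X were shared. No window of SLC30A1 was shared at any of these lengths. The read length was not given in the sources used here, and copies in the genome outside annotated transcripts were not searched.

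The promoters of the 4 members over the minimum mean count are shown because MTF1 acts through short metal response elements. They are the 250 bases before the RefSeq start on GRCh38.p14, at chr16:56608334-56608583 (plus strand) for MT2A, chr16:56682220-56682469 (plus strand) for MT1X, chr1:211579162-211579411 (minus strand) for SLC30A1 and chr1:37859593-37859842 (minus strand) for MTF1. Capitals mark the core of the metal response element, searched as TGCACNC or TGCGCNC on both strands.
MT2A: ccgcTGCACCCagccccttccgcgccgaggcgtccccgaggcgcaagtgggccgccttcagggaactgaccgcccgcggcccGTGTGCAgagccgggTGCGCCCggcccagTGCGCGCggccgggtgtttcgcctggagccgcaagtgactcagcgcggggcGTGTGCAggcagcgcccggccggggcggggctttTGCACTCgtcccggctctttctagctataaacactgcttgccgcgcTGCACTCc
MT1X: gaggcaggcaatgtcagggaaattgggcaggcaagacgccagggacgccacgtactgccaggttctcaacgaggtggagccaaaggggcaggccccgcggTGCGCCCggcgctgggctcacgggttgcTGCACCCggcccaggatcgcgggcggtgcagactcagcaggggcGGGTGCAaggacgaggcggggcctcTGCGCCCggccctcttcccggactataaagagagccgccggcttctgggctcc
SLC30A1: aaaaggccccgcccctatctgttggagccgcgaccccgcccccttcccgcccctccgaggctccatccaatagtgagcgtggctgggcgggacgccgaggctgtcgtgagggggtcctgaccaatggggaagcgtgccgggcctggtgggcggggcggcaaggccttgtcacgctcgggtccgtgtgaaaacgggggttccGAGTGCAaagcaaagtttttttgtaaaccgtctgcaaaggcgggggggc
MTF1: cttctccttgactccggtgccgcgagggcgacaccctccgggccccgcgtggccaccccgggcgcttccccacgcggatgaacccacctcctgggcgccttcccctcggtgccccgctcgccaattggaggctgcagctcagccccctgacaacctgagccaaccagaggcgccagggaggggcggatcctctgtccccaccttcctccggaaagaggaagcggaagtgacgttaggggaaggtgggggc
The MT2A window held 7 matches, the MT1X window 4, the SLC30A1 window 1 and the MTF1 window 0. In MT2A they lay between 246 and 2 bases before the start, 5 on the coding strand and 2 on the other, and in MT1X between 150 and 47 bases. The match in SLC30A1 lay 49 to 43 bases before the start. Of 35116 promoter windows of the same length, 24.8% held at least 1 match, 0.370% at least 4 and 0.0313% (11 windows) at least 7. Another motif, the antioxidant response element core TGACNNNGC, occurred once each in the MT2A, MT1X and SLC30A1 windows and in 10.9% of all windows, overlapping no metal response element match in these 3. A match is only a run of letters: MT1H, a gene with 0 counts in all 3 libraries, had 8 metal response element matches. Annotated starts also differ between sources, by 385 bases for MT2A, 419 for SLC30A1, 46 for MT1X and 28 for MTF1 between RefSeq and GENCODE 29. RefSeq promoters were found for 4 of 8 members. Those of MT1E, MT1F, MT1G and MT1M were not used here.

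**Figure D1:**
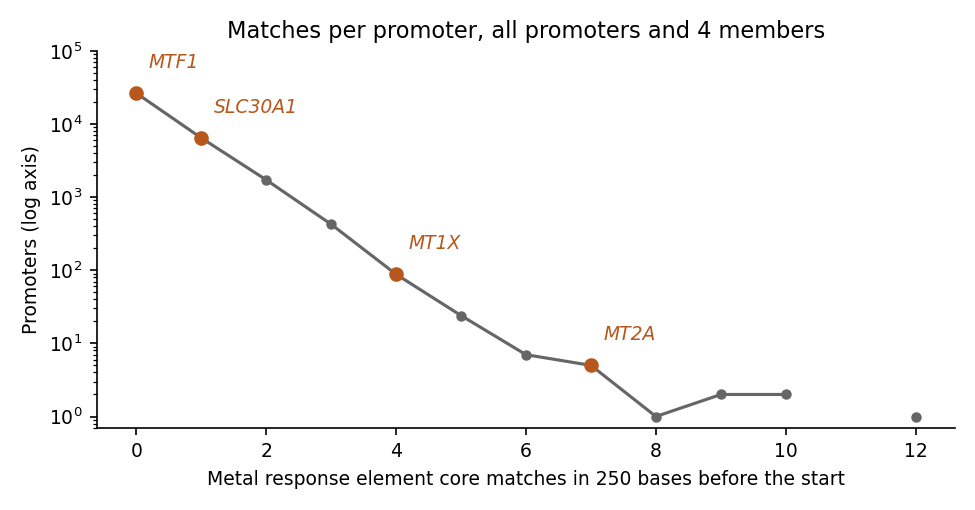
Number of promoters (y axis, log scale) by the number of metal response element core matches in the 250 bases before the start (x axis), over 35116 promoters. Orange points mark the 4 members, with 7 matches for MT2A, 4 for MT1X, 1 for SLC30A1 and 0 for MTF1.

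MT2A carried nearly all metallothionein reads and was higher in both secretomes. It had 1860 counts in control, 5790 in YA-A375 and 4507 in OA-A375, from libraries of 21448195, 21306558 and 18089008 counts. Divided by the size factor of each library, these are normalised counts of 1753, 5472 and 5059. The control library was the low one and the secretome libraries lay close together. MT2A was 3.12-fold of control in YA-A375 (95% Clopper-Pearson interval 2.96 to 3.29) and 2.89-fold in OA-A375 (2.73 to 3.05), and 0.925-fold in OA-A375 against YA-A375 (0.889 to 0.961). All such intervals come from the reads of the 2 libraries and cover counting error only, since no molecular identifiers are described and PCR copies of a molecule could each be counted. Ranked by log2 fold change with a pseudocount of 1, MT2A was the 69th highest of 14413 genes in YA-A375 and the 151st highest in OA-A375, and the 9245th highest between OA-A375 and YA-A375. Its share of all counts was 0.00867% in control (95% Wilson interval 0.00829 to 0.00908), 0.0272% in YA-A375 (0.0265 to 0.0279) and 0.0249% in OA-A375 (0.0242 to 0.0257). The gene (ENSG00000125148.6) spans 56608199 to 56609497 of chromosome 16 on the plus strand.

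Of the reads on the 21 metallothionein loci matched in the file, MT2A took 99.1% in control, 99.6% in YA-A375 and 99.1% in OA-A375. The summed 6 metallothionein members had 1873, 5810 and 4543 counts, and their ratios were therefore nearly those of MT2A: 3.11-fold in YA-A375 (2.95 to 3.28), 2.89-fold in OA-A375 (2.74 to 3.05) and 0.929-fold between OA-A375 and YA-A375 (0.893 to 0.966). A sum changes less than single genes if reads were split between copies.

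MT1X was the only other metallothionein member with over 3 counts in any library. It had 11 counts in control, 20 in YA-A375 and 36 in OA-A375, or 10.4, 18.9 and 40.4 normalised counts. OA-A375 was the high library, and the exact Poisson intervals of control (5.17 to 18.5) and YA-A375 (11.5 to 29.2) overlapped. The ratio was 1.82 in YA-A375 (0.833 to 4.21), so a difference was not detectable at this depth. In OA-A375 it was 3.90 (1.94 to 8.49) against control and 2.14 (1.205 to 3.90) against YA-A375. The exons shared with AC026461.1 make these counts uncertain, because a read in them can belong to either gene. MT1X (ENSG00000187193.8) spans 56682424 to 56684196 of chromosome 16.

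MT1E, MT1G and MT1M had 0 counts in every library. A count of 0 allows up to 3 counts, which is 0.140 CPM (counts scaled to a common library total) in control, 0.141 in YA-A375 and 0.166 in OA-A375, where MT2A had 86.7, 272 and 249 CPM. MT1F had 2 counts in control and 0 in both secretome libraries, which gives no fold change. Most windows of these 4 genes occur in no other annotated gene, as given above. The remaining loci were as sparse. Among 15 further metallothionein genes and pseudogenes matched in the file, MT2P1, a processed pseudogene of chromosome 4, had 0, 2 and 4 counts in control, YA-A375 and OA-A375. MT1XP1 had 2 counts in each library, MT1P1 had 1, 1 and 0, MT1DP had 1 in OA-A375 and MT1IP had 1 in control. MT1A, MT1B, MT1H, MT3, MT4 and the others were at 0. Thus 5 of the 16 loci in the chromosome 16 cluster had any count.

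**Figure D2:**
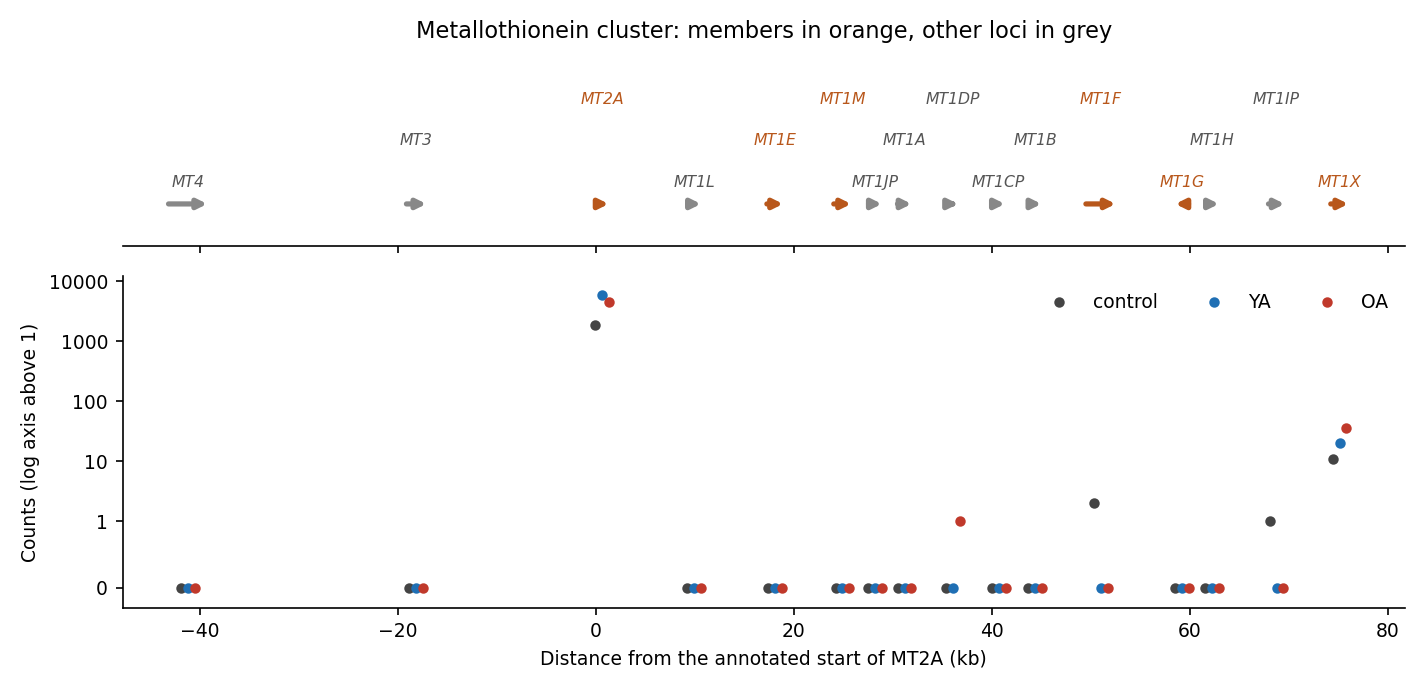
Metallothionein cluster on chromosome 16: arrows give gene extent and strand by distance from the annotated start of MT2A in kb (x axis), and points give the counts of each library (y axis, log scale above 1). MT2A stands near 1860 to 5790 counts and MT1X near 11 to 36, while each of the other 14 loci holds at most 2.

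SLC30A1, which exports zinc from the cell, differed between the secretomes. It had 323 counts in control, 493 in YA-A375 and 874 in OA-A375, or 304, 466 and 981 normalised counts. The 3 levels were apart beyond counting error, with OA-A375 highest and control lowest. The ratio to control was 1.53 in YA-A375 (1.33 to 1.77) and 3.22 in OA-A375 (2.83 to 3.67), and OA-A375 was 2.11-fold of YA-A375 (1.88 to 2.36). By log2 fold change it was the 822nd highest gene in YA-A375, the 114th in OA-A375 and the 384th between OA-A375 and YA-A375. SLC30A1 (ENSG00000170385.9) spans 211571568 to 211578742 of chromosome 1 on the minus strand.

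MTF1, the transcription factor itself, had 950 counts in control, 993 in YA-A375 and 851 in OA-A375, or 895, 938 and 955 normalised counts. The Poisson intervals of the 3 levels overlapped. Its ratios were 1.05 in YA-A375 (0.958 to 1.15), 1.07 in OA-A375 (0.972 to 1.17) and 1.02 between OA-A375 and YA-A375 (0.928 to 1.12). A difference in MTF1 mRNA was not detectable at this depth. MTF1 (ENSG00000188786.9) spans 37809567 to 37859620 of chromosome 1 on the minus strand.

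**Figure D3:**
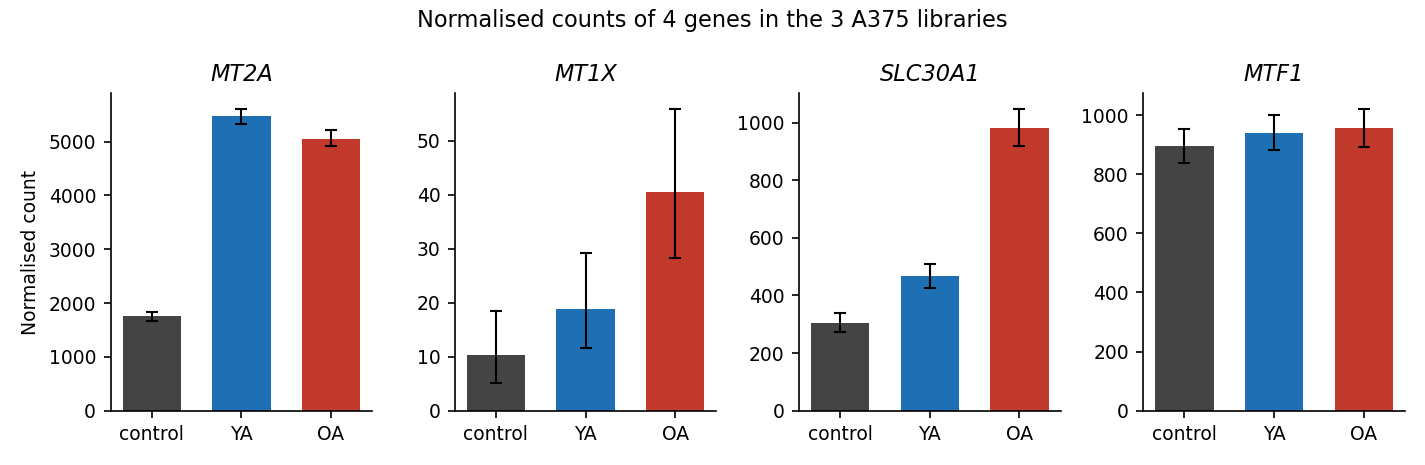
Normalised counts (y axis, from 0, a scale for each gene) of MT2A, MT1X, SLC30A1 and MTF1 in the control, YA and OA libraries, with exact 95% Poisson intervals that cover counting error only. MT2A was high in both secretome libraries (5472 and 5059), SLC30A1 was highest in OA (981), and the MTF1 intervals overlapped.

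Levels were compared between genes per kb of merged exon. MT2A had 1349 normalised counts per kb in control, 4213 in YA-A375 and 3895 in OA-A375, and ranked 529th of 27298, 120th of 26793 and 141st of 25091 genes with a count. MTF1 had 112, 117 and 119 per kb. SLC30A1 had 55.6, 85.1 and 179 per kb, below MTF1 in control and YA-A375 and above it in OA-A375. MT1X was lowest of these 4 in each library, at 5.85, 10.7 and 22.8 per kb. Within each library the Poisson intervals of neighbours in this order did not overlap.

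MT1X, at 10.4 and 18.9 normalised counts in control and YA-A375, reached the minimum mean of 20 through its OA-A375 level of 40.4, so its place among members higher in OA-A375 follows in part from the minimum and supports nothing. Without it, the counts of higher members that follow rest on MT2A and SLC30A1 in both comparisons with control and on SLC30A1 in OA-A375 against YA-A375. At least 1.2-fold, the cutoff named in the study's methods and read here as linear, 3 of the 4 counted members (MT2A, MT1X and SLC30A1) were higher in YA-A375, beside 17.4% of all 14413 genes. The same 3 were higher in OA-A375, beside 21.1%. Between OA-A375 and YA-A375, MT1X and SLC30A1 were higher in OA-A375, beside 21.5%. No counted member was lower in any of the 3 comparisons, beside 16.4% of genes in YA-A375, 21.5% in OA-A375 and 23% in OA-A375 against YA-A375. MT2A, MT1X and SLC30A1 also passed 1.5-fold in YA-A375 (beside 6.25%) and OA-A375 (beside 7.56%), and MT1X and SLC30A1 in OA-A375 against YA-A375 (beside 7.67%). At 2-fold, MT2A was the 1 member higher in YA-A375 (beside 2.15%), all 3 were higher in OA-A375 (beside 2.86%) and MT1X and SLC30A1 in OA-A375 against YA-A375 (beside 3.04%). With the counting interval wholly past 1.2-fold, 2 members counted in YA-A375 (MT2A and SLC30A1, beside 6.03%), 3 in OA-A375 (beside 9.04%) and 2 in OA-A375 against YA-A375 (beside 9.03%), the MT1X interval in the last reaching down to 1.205. By these stricter rules 0 members were lower. The share of all genes lower in YA-A375, OA-A375 and OA-A375 against YA-A375 was 4.52%, 8.81% and 10.3% at 1.5-fold, 0.971%, 3.71% and 4.43% at 2-fold, and 4.44%, 9.08% and 10% by the interval. The comparisons with control share that library, so the values of YA-A375 and OA-A375 are not independent of each other.

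**Figure D4:**
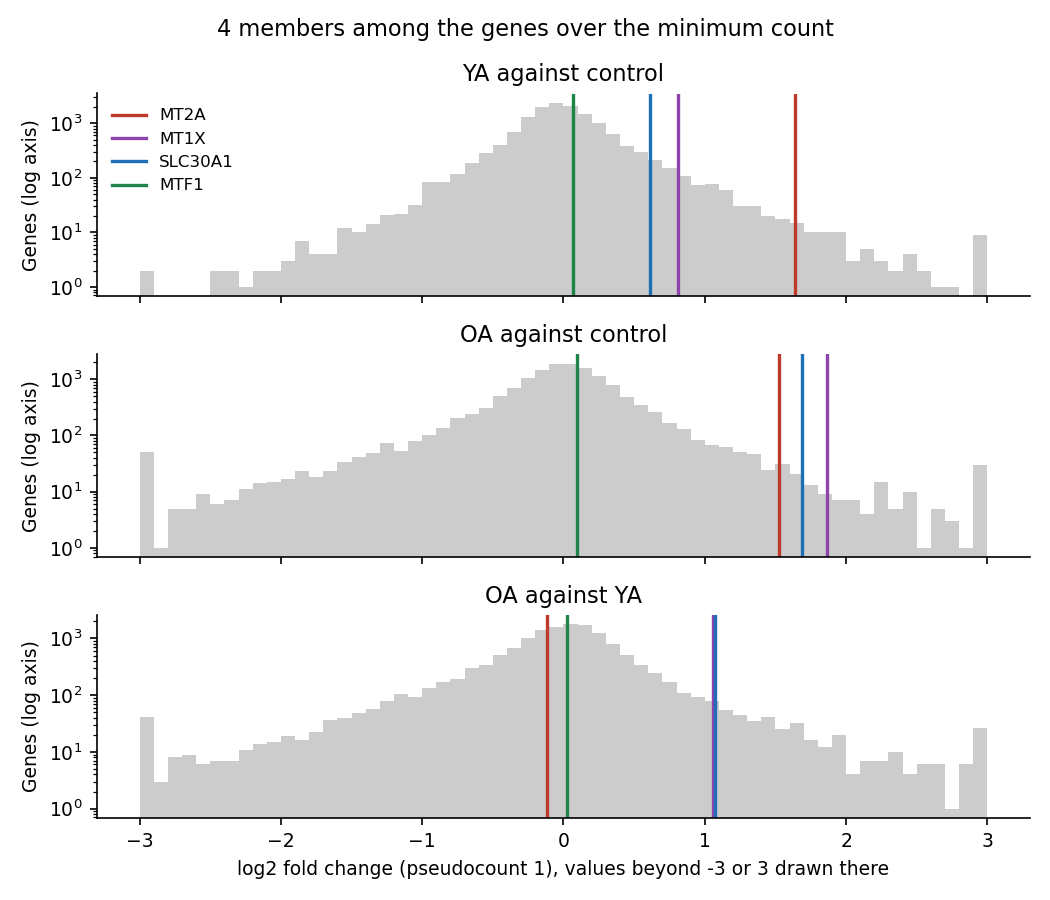
Log2 fold change of the 14413 tested genes (x axis, pseudocount 1) as a histogram of genes (y axis, log scale) in each comparison, with lines for MT2A, MT1X, SLC30A1 and MTF1. MT2A stood at 1.64 in YA and 1.53 in OA against control but at -0.11 between OA and YA, where SLC30A1 stood at 1.07.

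SLC30A1 was set beside the other zinc carriers. The 1.2-fold cutoff was passed upward by 17.4% of the 14413 genes in YA-A375 and downward by 16.4%. In OA-A375 the shares were 21.1% upward and 21.5% downward, and in OA-A375 against YA-A375 21.5% and 23%. The counts for these short lists are to be read beside these shares, as description only. Of the other 9 exporters of the SLC30 family, 7 reached the minimum, of which 0 were at least 1.2-fold higher and 1 lower in YA-A375, 1 higher and 2 lower in OA-A375, and 1 higher and 2 lower in OA-A375 against YA-A375. The largest OA-A375 ratio among them was that of SLC30A4, which loads zinc into vesicles, with 213 counts in control, 230 in YA-A375 and 243 in OA-A375 and a ratio to control of 1.36 (1.13 to 1.64), below the 3.22 of SLC30A1. SLC30A2, with the largest absolute log2 fold change among them, had 32, 25 and 16 counts. Its ratio in OA-A375 was 0.596, with an interval (0.305 to 1.12) that held 1. SLC30A10, an exporter of manganese, was below the minimum and was picked out after its values were seen. It had 0 counts in control, 4 in YA-A375 and 17 in OA-A375. With the control library set to a floor of 3 counts, the OA-A375 ratio to control would be 6.75. That value leaves out the counting error of the 17 counts and is no lower limit. Of 14 importers of the SLC39 family, 11 reached the minimum, with 0 higher and 3 lower in YA-A375, 3 higher and 1 lower in OA-A375, and 2 higher and 0 lower in OA-A375 against YA-A375. SLC39A10, a zinc importer of the plasma membrane, had 2107, 1489 and 1070 counts in control, YA-A375 and OA-A375, the opposite order to SLC30A1. Its ratio was 0.709 in YA-A375 (0.663 to 0.758) and 0.605 in OA-A375 (0.562 to 0.651).

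**Figure D5:**
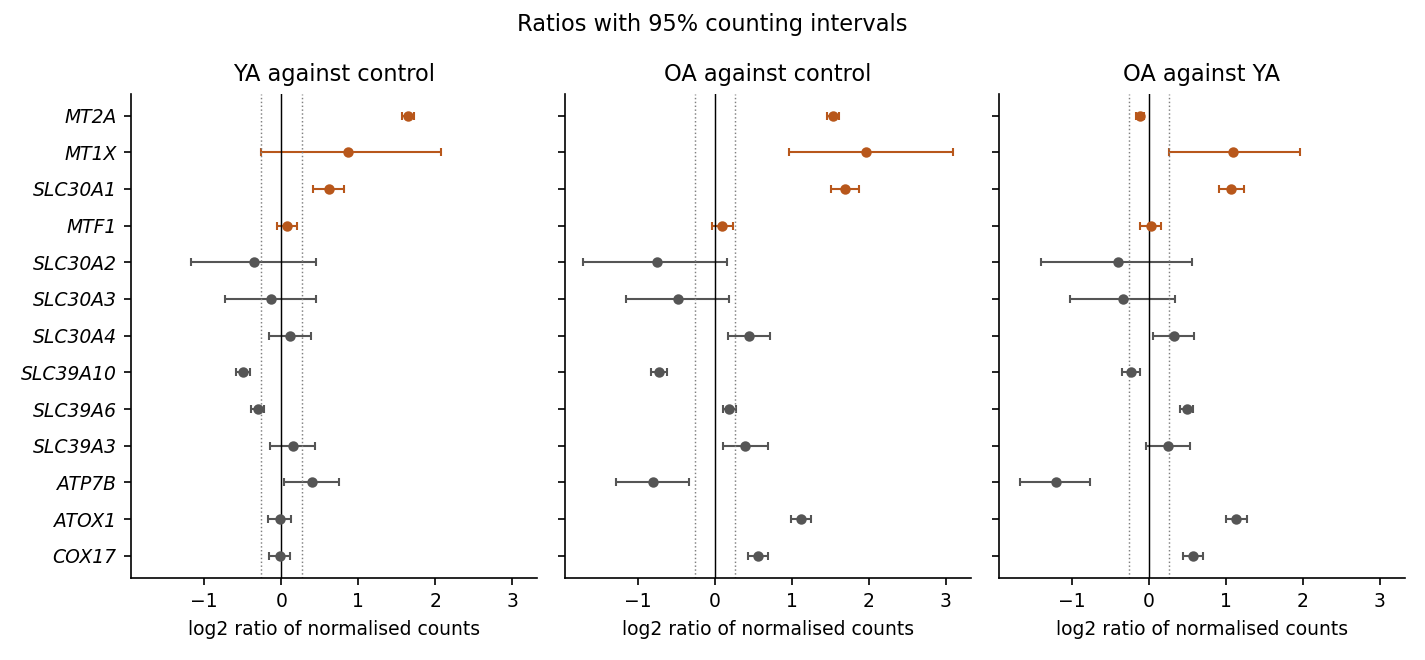
Log2 ratio of normalised counts (x axis) of the 4 counted members (orange) and of zinc and copper carriers (grey) in the 3 comparisons, with 95% counting intervals and dotted lines at 1.2-fold. MT2A and SLC30A1 lay right of the dotted line in both comparisons with control, where SLC39A10 lay left of it. The importer SLC39A3 lay right of it in OA against control. The wide MT1X interval held 0 in YA against control.

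Other metal and stress systems gave mixed counts. At 1.2-fold, 17.4% of all 14413 genes were higher and 16.4% lower in YA-A375. These shares were 21.1% and 21.5% in OA-A375, and 21.5% and 23% in OA-A375 against YA-A375. The list counts below stand beside these shares and, with lists this short, are given as description only. Of 10 copper genes over the minimum, 2 were at least 1.2-fold higher and 1 lower in YA-A375, and 2 higher and 2 lower in OA-A375. ATOX1, the chaperone that passes copper to the copper ATPases, had 734 counts in control, 722 in YA-A375 and 1338 in OA-A375, a ratio of 0.987 in YA-A375 (0.889 to 1.09) and 2.17 in OA-A375 (1.98 to 2.38). ATP7B, a copper-exporting ATPase and the copper gene with the largest difference, had 119, 156 and 57 counts, a ratio of 1.31 in YA-A375 (1.03 to 1.68), 0.571 in OA-A375 (0.409 to 0.789) and 0.434 in OA-A375 against YA-A375 (0.315 to 0.591). Of 10 iron genes, 3 were higher and 0 lower in YA-A375, and 4 higher and 1 lower in OA-A375, where TFRC, the transferrin receptor, was at 0.511 (0.493 to 0.530) from 9841 counts in control and 4223 in OA-A375. Of 9 metal and oxidant stress genes, 1 was higher and 3 lower in YA-A375, and 5 higher and 2 lower in OA-A375. HMOX1, heme oxygenase, had 127, 115 and 221 counts, a ratio of 0.908 in YA-A375 (0.699 to 1.18) and 2.07 in OA-A375 (1.66 to 2.60). The 2 stress genes lower in OA-A375, named after their values were seen, were NQO1 and TXNRD1. They were at 0.544-fold (0.524 to 0.564) and 0.810-fold (0.784 to 0.837). Pooled, 47 of 55 zinc, copper, iron and stress genes reached the minimum. Of these 47, 6 were higher and 8 lower in YA-A375, beside 17.4% and 16.4% of all genes. In OA-A375 15 were higher and 8 lower, beside 21.1% and 21.5%. In OA-A375 against YA-A375 15 were higher and 5 lower, beside 21.5% and 23%. ATOX1 and HMOX1, like SLC30A1, were higher in OA-A375 than in YA-A375, at 2.20-fold (2.01 to 2.41) and 2.28-fold (1.81 to 2.88). ATP7B and TFRC were lower there, TFRC at 0.543-fold (0.524 to 0.563). In that comparison 6 of the 9 stress genes were at least 1.2-fold higher, beside 21.5% of all genes. The 1 lower gene, beside 23%, was NQO1 at 0.757-fold (0.728 to 0.787). With the counting interval wholly past 1.2-fold, 5 were higher and 1 lower, beside 9.03% and 10%. HSPA1A and HSPA1B were both among the 6, and sharing of reads between these genes was not tested.

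Genes of the glucocorticoid response were set beside MT2A, as dexamethasone was in the medium that differentiated the adipocytes. The adipocytes were later kept in a maintenance medium, whose composition was not given in the sources used here, and washed before secretome collection. Of 11 over the minimum, 7 were at least 1.2-fold higher and 1 lower in YA-A375, beside 17.4% and 16.4% of all genes. In OA-A375, 3 were higher and 6 lower, beside 21.1% and 21.5%. In OA-A375 against YA-A375, 0 were higher and 8 lower, beside 21.5% and 23%. TSC22D3 had 71 counts in control, 779 in YA-A375 and 49 in OA-A375, a ratio of 11.0 in YA-A375 (8.62 to 14.2). PER1 was at 5.75-fold in YA-A375 (5.27 to 6.29) and 1.25-fold in OA-A375 (1.11 to 1.40). In OA-A375 against YA-A375, TSC22D3 was at 0.0747-fold (0.0548 to 0.0998) and PER1 at 0.217-fold (0.199 to 0.237), and MT2A at 0.925-fold. The list was not uniform. CEBPD, a member of it named after its values were seen, lay near MT2A, with 177, 393 and 301 counts, 2.23-fold in YA-A375 (1.86 to 2.67), 2.03-fold in OA-A375 (1.68 to 2.45) and 0.910-fold in OA-A375 against YA-A375 (0.780 to 1.06). Their part in the MT2A level was not tested.

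By distance in log2 fold change to control, the protein-coding genes nearest to the summed metallothioneins among 10609 with a mean of at least 100 were ANGPTL4 (0.14), ASNS (0.39), ZC3H12A (0.59), TNFAIP3 (0.60) and GDF15 (0.61). ANGPTL4 had 78 counts in control, 267 in YA-A375 and 183 in OA-A375. The distance rests on 3 libraries.

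Marker genes were checked for the labelled cell and for RNA of other cells. Of 12 melanoma and melanocyte markers, 8 had over 3 counts in each library, MITF and S100B among them, but SOX10, a defining gene of the lineage, was at 0 in all 3 and TYR was at 0 in YA-A375 and OA-A375. The summed normalised count of 10 adipocyte markers, most of it PPARG, was 2213 in control, 3147 in YA-A375 and 2232 in OA-A375. In these libraries 6, 7 and 5 of the genes had over 3 counts. LEP and CIDEA were at 0 throughout and ADIPOQ was at 0 in both secretome libraries. All 5 adipocyte markers over the minimum were at least 1.2-fold higher in YA-A375, beside 17.4% of all genes. They ran from PPARG at 1.23-fold to CIDEC at 5.18-fold (2.13 to 15.2, from 6, 31 and 36 counts). LPL was at 1.66-fold, LIPE at 1.94-fold and PLIN4 at 2.04-fold. With the counting interval wholly past 1.2-fold, 4 of them were higher, all but PPARG, beside 6.03%. FABP4, below the minimum, had 16 counts in control and 15 in YA-A375. In OA-A375 CIDEC (7.15-fold, 2.98 to 20.8) and PLIN4 (1.35-fold) were higher, beside 21.1% of all genes. LPL was lower there (0.101-fold, 0.0673 to 0.147), beside 21.5%, and FABP4 was at 0.149-fold (0.0166 to 0.633). The sum over 8 fibroblast markers, most of it PDGFRB, was 707, 895 and 624, with 6, 5 and 5 genes over 3 counts. Within it DCN had 13, 138 and 24 counts, 10.6-fold in YA-A375 (6.02 to 20.5) and 2.20-fold in OA-A375 (1.08 to 4.70), and PDGFRA was at 0.264-fold in YA-A375 (0.153 to 0.437). The sum over 8 leukocyte markers, most of it LYZ, was 166, 167 and 118. Each library had 3 of these genes over 3 counts, and CD3E was at 0 throughout. Single markers were named after their values were seen, and the part of these cell types in the metallothionein levels was not tested.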

How the data were processed

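A375 cells were profiled in 3 poly(A) RNA libraries, 1 each for control, YA and OA. The authors deposited raw read counts for 58037 annotated genes. The submitters' processing notes name STAR 2.5.1b, featureCounts, R 3.6.1 and hg38. The annotation release and the use of strand were not given in the sources used here. Libraries held 18089008 to 21448195 counts. Counts were divided by DESeq2 1.42.0 size factors (R 4.3.3). Ratios have 95% Clopper-Pearson intervals. Calls and ranks used log2 fold changes (pseudocount 1) of the 14413 genes whose normalised counts averaged 20 or more. Without replicates no differential test could be run. From each list other than the members, up to 3 genes with the largest absolute log2 fold change could be named, as could every metallothionein locus with a count and the 5 genes nearest in pattern. Members and lists were chosen with earlier results of these data known. Alternatives were edgeR 4.0.16 TMM and total-count scaling, other minimum counts, thresholds and pseudocounts. Positions and transcripts came from GENCODE 29, and promoters from RefSeq. The code was tested on simulated data in Python 3.11.15 with scipy 1.17.1, pandas 2.3.3 and numpy 2.4.6. Figures were drawn with matplotlib 3.10.9.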

Additional observations from a re-analysis of the deposited data

How the results depend on the processing

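No paired analysis was possible because each group had 1 library, and for the same reason no library could be left out. The log2 fold changes of MT2A, MT1X, SLC30A1 and MTF1 in the 3 comparisons stayed within their counting intervals under TMM scaling (largest shift 0.014), total-count scaling (0.012) and a pseudocount of 5 (0.30), as did the summed metallothioneins under these settings and with all metallothionein loci added. Without MT2A, which leaves mainly MT1X, the log2 fold change of the sum was 0.59 for YA over control, 1.64 for OA over control and 1.06 for OA over YA. Dropping the minimum count added 1 lower member for YA over control and 1 for OA over control, namely MT1F with its 2 control counts. A minimum of 100, which drops MT1X, left 1 higher member for OA over YA, and a 2-fold threshold left 1 for YA over control. For the pooled zinc, copper, iron and stress genes, the number lower for OA over YA became 8 with TMM, 8 with total-count scaling and 3 with a minimum of 100. A 1.5-fold threshold left 1 pooled gene higher and 1 lower for YA over control, then 4 higher and 5 lower for OA over control, then 5 higher and 2 lower for OA over YA. A 2-fold threshold left none (0 higher, 0 lower) for YA over control, then 3 higher and 0 lower for OA over control, then 2 higher and 1 lower for OA over YA. Requiring the whole interval past 1.2-fold left 4 pooled genes higher and 3 lower for YA over control. By the same rule 11 were higher and 4 lower for OA over control, and 9 higher and 3 lower for OA over YA. The shares of all genes by these stricter rules are given above with the members. Where fewer genes passed, the stricter rule or minimum accounts for it by construction; the cause of the scaling differences was not tested. Of 288 counts for single lists under these alternatives, 86 changed by over 1.5 times, 70 of them to fewer genes. Depth limits MT1X most, with 11 to 36 counts.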
